A study of Homo sapiens with 4 samples.

Results

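The natriuretic peptide genes NPPA, NPPB and NPPC, their receptor genes NPR1, NPR2 and NPR3, and the protease genes CORIN and FURIN were followed across 4 RNA-seq libraries of human stem cell-derived cardiomyocytes. These 8 genes, among 23615 symbols of the deposited gene table, were picked by name after the difference in NPPB between the groups was known. The values of the 8 genes are therefore given as a description, with standard errors and intervals for their spread and no test of the genes themselves. The cardiac natriuretic peptides, those of NPPA and NPPB, are hormones made as precursors in heart muscle cells, stored in granules and released when the wall is stretched. NPPA encodes the atrial peptide (ANP) and NPPB the B-type peptide (BNP), and both act through the cyclic GMP-forming receptor encoded by NPR1. NPPC encodes the C-type peptide, which acts through the receptor encoded by NPR2. NPR3 encodes the receptor that clears the peptides, CORIN the membrane protease that cuts the ANP precursor, and FURIN a Golgi protease that cuts the other precursors. In the embryonic heart NPPA and NPPB mark the working muscle of the growing chambers, and both are used as markers of load on the adult ventricle.

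Poly-A RNA was taken on day 14 from unsorted cultures of RUES2 cells, a single human embryonic stem cell line, after induction with activin A at 100 ng/ml and BMP4 at 5 ng/ml (A100/B5). In 1 group, cardiomyocytes were obtained from A100/B5 CPCs (cardiac progenitor cells), under a protocol that adds 1 µM XAV, which inhibits canonical Wnt signaling, on day 3. The supplement draws this step but says that it was part of only some experiments, so its use in these cultures is not certain. In the other group, A100/B5 cells were first directed toward hemogenic endothelium with VEGF, bFGF and further BMP4 in a different medium. XAV at 2 µM from day 5 then turned these A100/B5 ECs to cardiomyocytes (ECsXAV). The CPC protocol lists no VEGF, bFGF or further BMP4, so the groups differed in these factors too. Each group had 2 libraries, and the comparison asks how the cardiomyocytes of the 2 origins differ.

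Values are FPKM, fragments scaled by transcript length and by the mapped fragments of the library, so that levels can be compared between genes per length. Relative to ECsXAV replicate 1, the depth of the other libraries was 50.1% to 86.9%, and total depth is not known. The labels put a different name prefix on the samples of each group without saying what it stands for, and whatever it marks cannot be told apart from the group. All 8 cardiomyocyte markers examined, such as TNNT2 and ACTN2, had at least 24.5 FPKM in every library, and their summed level was 6183 to 6675 FPKM in ECsXAV and 7272 to 7593 FPKM in CPC cardiomyocytes. The cultures thus carried the labelled cardiac markers in both groups. PTPRC (blood), NANOG (pluripotent cells) and MYF5 (skeletal muscle precursors) were listed at 0 in all 4 libraries, but other markers of their lists were read. HBE1 of the blood list had 2.13 and 4.55 FPKM in ECsXAV. LIN28A of the pluripotent list had 1.65 to 2.39 FPKM over the libraries, and CKM of the skeletal muscle list 309 to 440 FPKM. Because these are bulk samples, fewer cells of a type and less RNA per cell cannot be told apart.

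NPPA and NPPB lie side by side on chromosome 1. On GRCh37 (the hg19 build), with the gene models of GENCODE 44, NPPA spans chr1:11905766-11908402 and NPPB chr1:11917521-11919002, each with 3 exons on the minus strand and with 9118 bases between them. The 250 bases before the RefSeq start of NPPA are printed first because they carry letters read by cardiac transcription factors. Those before the start of CORIN, another cardiac gene of the family, are printed beside them, and those before NPPC because the gene is the ligand that was almost unread. No sequence was at hand for NPPB. Capitals mark TGATAA, a form of the site of GATA factors, and AAGTG, a form of the site of NKX2-5, on either strand (TTATCA and CACTT on the other). The sequences are from RefSeq on GRCh38.p14, at chr1:11847784-11848033, chr4:47838068-47838317 and chr2:231926397-231926646, all on the minus strand and written 5′ to 3′.
NPPA: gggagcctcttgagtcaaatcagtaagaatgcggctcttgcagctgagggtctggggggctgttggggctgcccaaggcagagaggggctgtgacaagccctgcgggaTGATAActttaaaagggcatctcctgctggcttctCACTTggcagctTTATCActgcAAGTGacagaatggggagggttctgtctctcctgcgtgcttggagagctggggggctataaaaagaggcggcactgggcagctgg
CORIN: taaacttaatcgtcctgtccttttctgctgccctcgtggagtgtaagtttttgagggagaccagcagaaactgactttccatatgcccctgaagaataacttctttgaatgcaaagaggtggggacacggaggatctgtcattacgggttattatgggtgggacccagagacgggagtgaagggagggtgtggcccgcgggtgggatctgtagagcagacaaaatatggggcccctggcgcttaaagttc
NPPC: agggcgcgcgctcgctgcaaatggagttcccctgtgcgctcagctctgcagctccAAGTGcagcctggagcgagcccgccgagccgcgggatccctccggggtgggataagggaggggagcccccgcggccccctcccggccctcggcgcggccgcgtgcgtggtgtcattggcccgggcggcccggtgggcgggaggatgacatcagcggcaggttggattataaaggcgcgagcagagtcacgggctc

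The NPPA sequence held 2 matches to TGATAA and 2 to AAGTG, with the NPPC sequence holding 1 match to AAGTG and the CORIN sequence neither. AAGTG was also found before starts of NPR2, NPR3 and FURIN, with 3 matches at 1 of the FURIN starts, while TGATAA was not. The matches therefore did not follow the group differences of the family. Among 35116 RefSeq promoters of this length, 6.66% held TGATAA and 37.6% held AAGTG on either strand. At least 2 matches of each kind were found in 28 of them, or 0.0797%. This pattern is the one that the NPPA window holds, so its rarity is a description and not a test. GTGTGA, a T-box form, CATTCC, a TEAD form, the MEF2 box and the CArG box of SRF were also searched. None of them was in the NPPA, CORIN or NPPC window, while GTGTGA was found before 1 start of NPR3 and CATTCC before another. A match is only a match of letters, and its use by a factor was not measured.

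NPPA and NPPB were both several-fold higher in ECsXAV cardiomyocytes. NPPA had 264 and 331 FPKM in the pair of ECsXAV libraries, against 26.1 and 32.4 FPKM in the pair of CPC libraries. The lowest ECsXAV library was thus far above the highest CPC library, and the groups did not overlap. The means were 297 ± 47.7 FPKM and 29.3 ± 4.51 FPKM (SD, n = 2 each), a 10.2-fold higher level in ECsXAV. On the log2(FPKM + 1) scale, CPC minus ECsXAV, the difference was -3.30 (standard error 0.18, 95% interval -3.76 to -2.84).

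For NPPB the ECsXAV libraries held 108 and 122 FPKM, against 6.07 and 6.84 FPKM in CPC. Again both ECsXAV libraries were above both CPC libraries, and the replicates of a group lay close together. The means were 115 ± 10.1 FPKM and 6.46 ± 0.54 FPKM (SD, n = 2 each), a 17.8-fold higher level in ECsXAV. The log2 difference was -3.96 (standard error 0.12, 95% interval -4.28 to -3.64). By the size of the log2 difference NPPB ranked 29 and NPPA 49 among the 12398 genes with a mean of at least 1 FPKM. Among the 12096 left without microRNAs and small nucleolar RNAs, the ranks were 1 and 4. The 1 added to FPKM makes the differences of weakly expressed genes too small, so these ranks favour abundant genes. In the ratio of means, weaker genes such as the endoderm markers AFP (65.5-fold) and TTR (78.9-fold) were further apart than NPPB.

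In ECsXAV cardiomyocytes the peptide genes were among the most abundant transcripts per length. NPPA ranked 130 and 105 by FPKM among all genes of the table in the ECsXAV replicates, and 2189 and 1784 in the CPC replicates. NPPB ranked 400 and 359 in the ECsXAV replicates and 7503 and 6839 in the CPC replicates. NPPA therefore remained a well expressed gene in CPC cardiomyocytes. NPPB was further down the 12240 and 12070 genes that had at least 1 FPKM in the CPC replicates.

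NPPC, the C-type peptide gene on chr2:232786519-232791106, was listed at 0 and 0.180 FPKM in ECsXAV and at 0.104 and 0 FPKM in CPC. By the steps between low FPKM, this is 0, 1, 1 and 0 reads, taking the fewest reads that give the values. A difference in NPPC was not detectable at this depth.

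**Figure D1:**
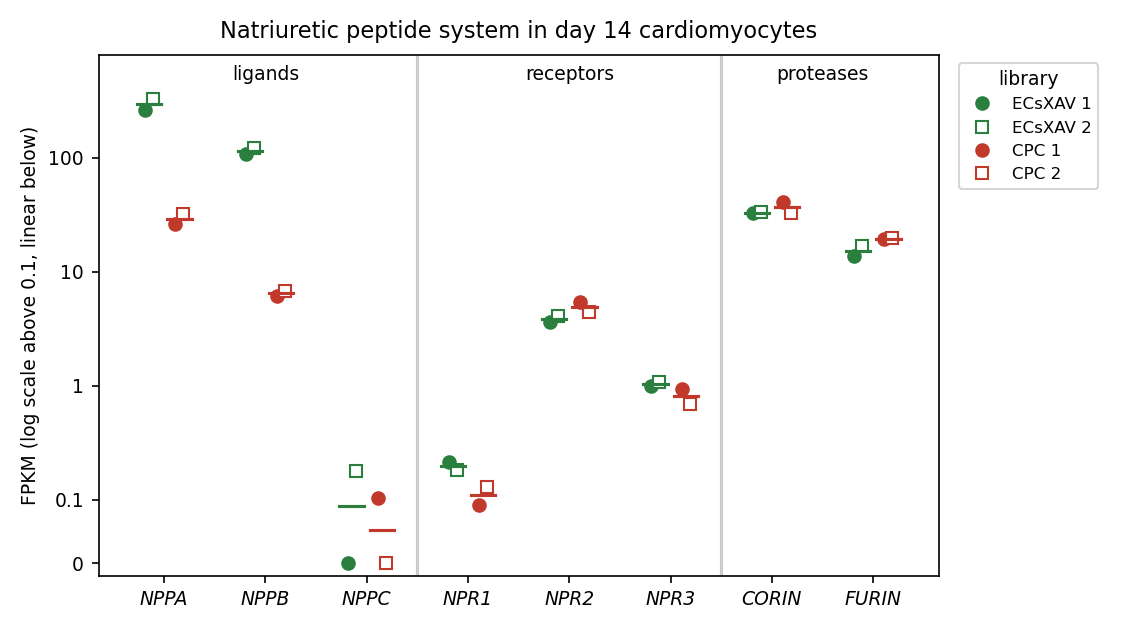
FPKM of the 8 genes of the family in each of the 4 libraries (points, with a line at each group's mean), on an axis that is logarithmic above 0.1 FPKM and linear below. NPPA (264 and 331 against 26.1 and 32.4 FPKM) and NPPB (108 and 122 against 6.07 and 6.84 FPKM) stand apart between the groups, whereas CORIN and the receptor NPR2 lie close together in all libraries.

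The mixture of the 2 cardiac ligands also differed between the groups. The ratio of NPPA to NPPB FPKM was 2.45 and 2.71 in the ECsXAV replicates and 4.29 and 4.74 in the CPC replicates. NPPB made up 29.0% and 26.9% of the summed FPKM of the pair in ECsXAV, and 18.9% and 17.4% in CPC cardiomyocytes. The mean ratios were 2.58 ± 0.19 and 4.52 ± 0.32 (SD, n = 2 each), a gap that exceeded the spread between the replicates.

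Read against TNNT2, the cardiac troponin T gene, the gap between the groups was wider than in FPKM. Per 1000 FPKM of TNNT2, NPPA had 107 and 143 FPKM in ECsXAV and 9.66 and 10.9 FPKM in CPC. On the same scale NPPB had 43.9 and 52.8 FPKM in ECsXAV and 2.25 and 2.29 FPKM in CPC. TNNT2 itself had 2453 and 2309 FPKM in ECsXAV and 2696 and 2988 FPKM in CPC, so it was higher in both CPC libraries.

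**Figure D2:**
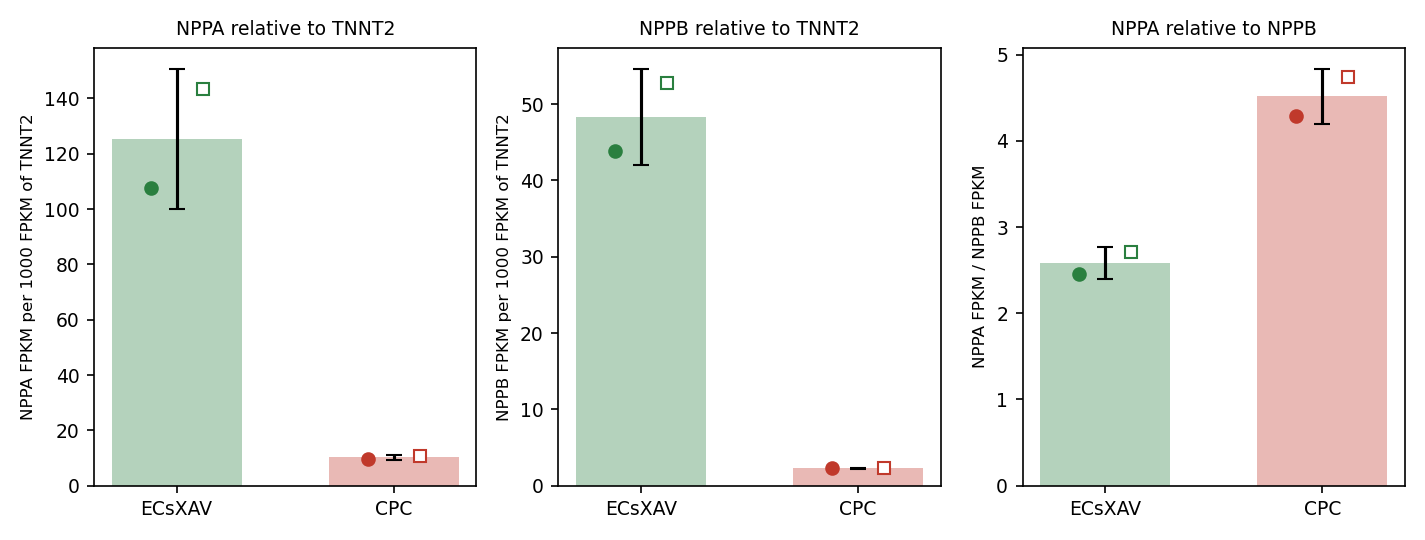
Ratio of NPPA to NPPB FPKM, and NPPA and NPPB per 1000 FPKM of TNNT2, for each library (circle for replicate 1, square for replicate 2) with the mean of each group as a bar and the SD as the error bar (n = 2). The ratio was 2.45 and 2.71 in the ECsXAV replicates and 4.29 and 4.74 in the CPC replicates, and both ligands per TNNT2 were higher in both ECsXAV libraries.

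Of the receptors, NPR2 was read most, and none differed between the groups on the scale seen for the cardiac ligands. NPR2, the C-type peptide receptor gene on chr9:35791000-35809729, had 3.62 and 4.06 FPKM in ECsXAV and 5.38 and 4.44 FPKM in CPC. The CPC libraries were the higher ones, without overlap, by 1.28-fold in the means. The log2 difference of 0.29 (standard error 0.14) had a 95% interval of -0.08 to 0.65.

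NPR1, the ANP and BNP receptor gene on chr1:153651164-153666468, had 0.216 and 0.181 FPKM in ECsXAV and 0.0914 and 0.128 FPKM in CPC. Its reads numbered 19, 8, 7 and 9 in the same order, again the fewest that give the values. The receptor through which both cardiac ligands signal was thus hardly read in either group, and its level in each group rests on few reads.

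NPR3, the clearance receptor gene on chr5:32689176-32791830, had 0.990 and 1.09 FPKM in ECsXAV and 0.943 and 0.687 FPKM in CPC. Both CPC libraries were below both ECsXAV libraries, by a small step for CPC replicate 1. It is the 1 gene of the family with several transcripts in the isoform table. NM_001204376 had the highest FPKM of its 3 transcripts in every library, at 70.4% ± 7.42 of the NPR3 sum in ECsXAV and 63.8% ± 14.5 in CPC (SD, n = 2 each), shares that overlapped between the groups. The split between the other transcripts, NM_000908 and NM_001204375, moved between replicates, since NM_001204375 had 0.000359 FPKM in ECsXAV replicate 1 and 0.187 FPKM in ECsXAV replicate 2.

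NPR2 took 75.0% and 76.2% of the summed receptor FPKM in the ECsXAV replicates and 83.9% and 84.5% in the CPC replicates. The share of NPR3 was 20.5% and 20.4% in ECsXAV and 14.7% and 13.1% in CPC, and that of NPR1 stayed under 5% in every library. The shares of NPR2 and NPR3 did not overlap between the groups, while the summed level, 4.83 and 5.33 FPKM against 6.42 and 5.26 FPKM, did.

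**Figure D3:**
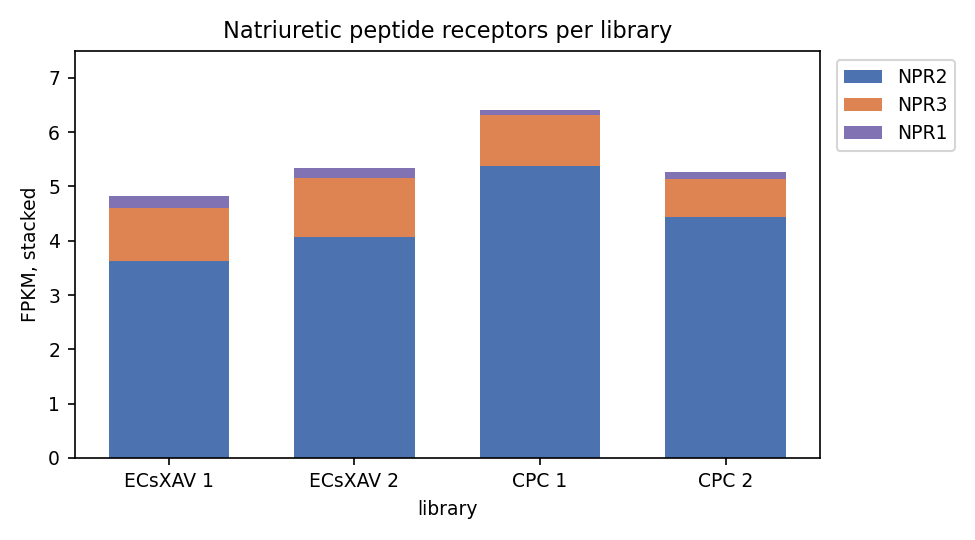
FPKM of NPR2, NPR3 and NPR1 stacked for each of the 4 libraries, so that the height of a bar is the summed receptor level. NPR2 made up 75.0% to 84.5% of the sum, and NPR1 had the smallest share in each library.

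Neither processing protease gene had the order of NPPA and NPPB. CORIN, on chr4:47596016-47840123 with 22 exons, had 32.9 and 33.3 FPKM in ECsXAV and 40.9 and 32.8 FPKM in CPC. CPC replicate 1 was the high library and the other 3 lay together, so the groups overlapped. The log2 difference was 0.14 (standard error 0.14, 95% interval -0.22 to 0.50), and it was -0.01 without CPC replicate 1.

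FURIN, on chr15:91411818-91426794 with 16 exons, had 13.8 and 16.9 FPKM in ECsXAV and 19.4 and 19.8 FPKM in CPC. Here the CPC libraries were the higher ones, by 1.28-fold in the means. The log2 difference of 0.34 (standard error 0.13) had a 95% interval from -0.0027 to 0.69. Its sign was opposite to that of NPPA and NPPB.

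The order of levels in the family therefore differed between the cultures. In ECsXAV cardiomyocytes NPPA was above NPPB, followed by CORIN, FURIN, NPR2, NPR3, NPR1 and NPPC, with no overlap between neighbours, although NPR1 and NPPC almost met at 0.181 and 0.180 FPKM in ECsXAV replicate 2. In CPC cardiomyocytes CORIN came first at 36.9 ± 5.69 FPKM (SD, n = 2), then NPPA, FURIN, NPPB, NPR2, NPR3, NPR1 and NPPC. There CORIN and NPPA did not differ beyond their spread, with 32.8 and 32.4 FPKM in CPC replicate 2. Per unit of CORIN, NPPA was 8.01 and 9.93 in ECsXAV and 0.637 and 0.988 in CPC, and per unit of FURIN, NPPB was 7.82 and 7.23 in ECsXAV and 0.313 and 0.346 in CPC.

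Of the 8 genes, 5 reached a mean of 1 FPKM over the libraries, the filter for the fit across all genes, and 3 (NPPC, NPR1 and NPR3) were below it. Groups did not overlap for 4 of the 5 genes, against 49.8% of all 12398 genes that entered the fit. As the family was picked with this contrast known, nothing is read from this count.

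Other genes of the pathway were held to a criterion, an adjusted p under 0.05 from limma with Benjamini-Hochberg adjustment and a difference over 2-fold. Over all 12398 genes tested, 2.15% met it, 1.44% as higher in ECsXAV and 0.71% as higher in CPC. An unadjusted p under 0.05 was given by limma to 18.2% of them.

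Around the NPPA and NPPB locus no tested neighbour differed by as much as the ligands, the log2 differences running from -0.25 to 0.38. Of the 10 neighbours listed, 9 were found in the table, 7 were tested and none met the criterion (limma, with 1 of 7 at an unadjusted p under 0.05). Their median log2 difference was 0.08, beside -0.0045 over all genes tested. CLCN6, a chloride-proton exchanger gene on the plus strand at chr1:11866153-11908136 that overlaps NPPA, had 8.78 and 9.73 FPKM in ECsXAV and 10.2 and 10.6 FPKM in CPC. The study counted reads by strand for its own test, but whether Cufflinks used strand for the FPKM is not given in the sources used here, so the division of reads in the overlap is uncertain. PLOD1, a collagen lysyl hydroxylase gene, had the highest mean of the neighbours together with MFN2, at 48.9 and 53.8 FPKM in ECsXAV and 60.5 and 74.6 FPKM in CPC. The antisense gene NPPA-AS1 had 0.0933 FPKM in ECsXAV replicate 1 and 0.0912 FPKM in CPC replicate 2 and practically 0 in the others.

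Downstream of the receptors, cyclic GMP is passed on by protein kinases and removed by phosphodiesterases. Of 24 genes of this cascade, 15 were tested, 1 met the criterion as higher in ECsXAV and none as higher in CPC, with a median log2 difference of 0.02 beside -0.0045 over all genes. PDE10A, a phosphodiesterase for both cyclic nucleotides, had 2.54 and 1.87 FPKM in ECsXAV and 0.391 and 0.383 FPKM in CPC, without overlap. Its log2 difference was -1.20 (standard error 0.17, adjusted p = 0.0451 from limma with Benjamini-Hochberg adjustment). It no longer met the criterion when ECsXAV replicate 2, CPC replicate 1 or CPC replicate 2 was left out, with adjusted p of 0.0644, 0.136 and 0.135 from limma, and without ECsXAV replicate 1 its mean FPKM was under 1.

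PDE5A, the cyclic GMP-specific phosphodiesterase, had 2.53 and 1.99 FPKM in ECsXAV and 0.668 and 0.559 FPKM in CPC, a log2 difference of -1.01 (adjusted p = 0.0549 from limma). PDE9A, another cyclic GMP-specific enzyme, had 4.64 and 5.55 FPKM in ECsXAV and 4.51 and 5.17 FPKM in CPC, with overlapping groups. PDE2A, the enzyme that cyclic GMP itself stimulates, was below the filter at 0.161 and 0.229 FPKM in ECsXAV and 0.0265 and 0.0432 FPKM in CPC. PDE1A and PDE3A, also below the filter, had the opposite order. PDE1A had 0.0769 and 0.212 FPKM in ECsXAV and 1.18 and 0.518 FPKM in CPC. For PDE3A the values were 0.280 and 0.269 FPKM in ECsXAV and 0.663 and 0.570 FPKM in CPC. The highest level of the cascade over the 4 libraries was that of GUCY1A3, a subunit of the guanylate cyclase that senses nitric oxide, with a mean of 45.1 FPKM in ECsXAV and 28.8 and 21.0 FPKM in the CPC libraries, both below either ECsXAV library. Its log2 difference was -0.85 (adjusted p = 0.0862 from limma). The kinase gene PRKG1 had 1.60 and 1.40 FPKM in ECsXAV and 2.14 and 1.18 FPKM in CPC, where the CPC replicates lay on either side of both ECsXAV libraries.

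Of 16 further genes of peptide processing and breakdown, 9 were tested, 1 met the criterion as higher in ECsXAV and none as higher in CPC, with a median log2 difference of 0.13. This gene, PCSK6, encodes the convertase known to activate corin. It had 3.39 and 3.89 FPKM in ECsXAV and 1.05 and 0.989 FPKM in CPC, without overlap. The log2 difference was -1.20 (standard error 0.14, adjusted p = 0.031 from limma with Benjamini-Hochberg adjustment). It no longer met the criterion when any 1 library was left out, at log2 differences of -1.28 to -1.12 and with adjusted p of 0.0668 without ECsXAV replicate 1, 0.112 without ECsXAV replicate 2, and 0.105 without either CPC replicate in turn (limma).

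The isoform table divides PCSK6 among 8 transcripts, and the CPC libraries disagreed on which was read. NM_002570 had 3.18 and 3.83 FPKM in ECsXAV, but 0.00147 FPKM in CPC replicate 1 and 0.989 FPKM in CPC replicate 2. NM_138319 had 1.05 FPKM in CPC replicate 1 and 0.000132 FPKM in CPC replicate 2. The gene level was steady between the CPC replicates and its division among transcripts was not.

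Of the enzymes that break the peptides down, IDE (insulin-degrading enzyme) had 8.28 and 8.30 FPKM in ECsXAV and 13.8 and 11.3 FPKM in CPC, a log2 difference of 0.54 (adjusted p = 0.126 from limma). MME, the gene of neprilysin, the main natriuretic peptide-degrading enzyme, was below the filter at 0.467 and 0.802 FPKM in ECsXAV and 0.134 and 0.0732 FPKM in CPC. DPP4, which trims BNP, had 0.513 and 0.366 FPKM in ECsXAV, 0.0281 FPKM in CPC replicate 1 and was listed at 0 in CPC replicate 2. MME and DPP4 were thus low throughout, with the ECsXAV libraries above the CPC libraries. PCSK5, of the same list of processing and breakdown, had the opposite order, with 0.759 and 0.400 FPKM in ECsXAV and 2.13 and 1.56 FPKM in CPC. Its log2 difference was 0.85 (adjusted p = 0.117 from limma).

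Of 8 secretory granule genes 3 were tested, and none met the criterion (limma, with 3 of 3 at an unadjusted p under 0.05). PAM, a membrane protein of atrial granules, had 92.9 and 75.3 FPKM in ECsXAV and 62.2 and 54.2 FPKM in CPC, a log2 difference of -0.52 (adjusted p = 0.174 from limma). CPE, a carboxypeptidase of granules, had 45.5 and 41.3 FPKM in ECsXAV and 58.0 and 54.8 FPKM in CPC, the opposite order. SCG2, a secretogranin, was below the filter at 0.858 and 1.06 FPKM in ECsXAV and 0.0439 and 0.119 FPKM in CPC.

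The transcription factors known to act on NPPA and NPPB were expressed in both groups. All 23 genes of this list were tested and none met the criterion, although limma gave 13 of them an unadjusted p under 0.05, and 12 were lower and 11 higher in CPC (median log2 difference -0.01). With microRNA and small nucleolar RNA genes left out of the fit, HAND1 and HEY2 met it. GATA4 had 99.4 and 105 FPKM in ECsXAV and 80.2 and 108 FPKM in CPC, with overlap. NKX2-5, the homeodomain factor whose letters are in the NPPA window above, had 118 and 140 FPKM in ECsXAV and 128 and 182 FPKM in CPC, also with overlap. For both factors CPC replicate 2 was above both ECsXAV libraries. Their part in the difference of NPPA was not tested.

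HAND1, a basic helix-loop-helix factor of the left ventricle, had 73.5 and 63.6 FPKM in ECsXAV and 15.7 and 27.6 FPKM in CPC, a log2 difference of -1.67 (adjusted p = 0.0577 from limma). HEY2, a Notch target of compact ventricular muscle, had 46.8 and 47.6 FPKM in ECsXAV and 17.6 and 26.2 FPKM in CPC, a log2 difference of -1.10 (adjusted p = 0.0706 from limma). Both had all ECsXAV libraries above all CPC libraries. TBX2 and TBX3, the T-box factors that repress chamber genes in the atrioventricular canal and conduction system, had the opposite order. TBX2 had 19.7 and 17.0 FPKM in ECsXAV and 44.7 and 28.9 FPKM in CPC, a log2 difference of 0.94 (adjusted p = 0.124 from limma). TBX3 had 1.96 and 2.47 FPKM in ECsXAV and 6.46 and 4.17 FPKM in CPC, a log2 difference of 0.95 (adjusted p = 0.11 from limma). TBX20, a further T-box factor, was higher in ECsXAV (log2 difference -0.84, adjusted p = 0.0825 from limma). SRF was higher in CPC (log2 difference 0.58, adjusted p = 0.0837 from limma). The part of these factors in the difference of NPPA and NPPB was not tested.

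Genes that, like NPPA and NPPB, are read as signs of load or of chamber type formed a further list. Of 14 such genes 11 were tested, with a median log2 difference of -0.64. Of these, 3 met the criterion as higher in ECsXAV and none as higher in CPC, beside 1.44% and 0.71% of all genes tested. The study had already reported MYH7, MYL2 and GJA5 of this list as different in this contrast, and the list was chosen with earlier results known. Nothing is therefore read from this count. MYH7, the slow myosin heavy chain, had 1011 and 931 FPKM in ECsXAV and 147 and 194 FPKM in CPC, a log2 difference of -2.52 (adjusted p = 0.0115 from limma with Benjamini-Hochberg adjustment). MYL2, the ventricular light chain, had 53.9 and 45.1 FPKM in ECsXAV and 7.04 and 9.92 FPKM in CPC, a log2 difference of -2.42 (adjusted p = 0.0139 from limma). ANKRD1, a stretch-responsive sarcomere protein, had 288 and 285 FPKM in ECsXAV and 73.6 and 100.2 FPKM in CPC, a log2 difference of -1.73 (adjusted p = 0.0239 from limma). The 3 genes were higher in both ECsXAV libraries. MYH6, a close paralog of MYH7, had the opposite order, with 855 and 857 FPKM in ECsXAV and 2070 and 1901 FPKM in CPC, a log2 difference of 1.21 (adjusted p = 0.0358 from limma). The study left reads with several alignments out of its own counts, but their handling in the FPKM is not given in the sources used here, so the levels of these paralogs are uncertain to that extent.

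With 1 library fewer the differences stayed in size, and some calls were lost. MYH7 did not meet the criterion without ECsXAV replicate 2 (log2 difference -2.58, adjusted p = 0.0511 from limma). MYL2 did not without CPC replicate 1 (-2.20, adjusted p = 0.070) or CPC replicate 2 (-2.64, adjusted p = 0.0544 from limma). ANKRD1 did not without ECsXAV replicate 1 (-1.72), ECsXAV replicate 2 (-1.74) or CPC replicate 1 (-1.51), with adjusted p of 0.0619, 0.103 and 0.0637 from limma. ACTA1, the skeletal actin gene that also rises in loaded hearts, had 22.8 and 22.4 FPKM in ECsXAV and 19.7 and 29.6 FPKM in CPC, so it did not separate the groups.

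**Figure D4:**
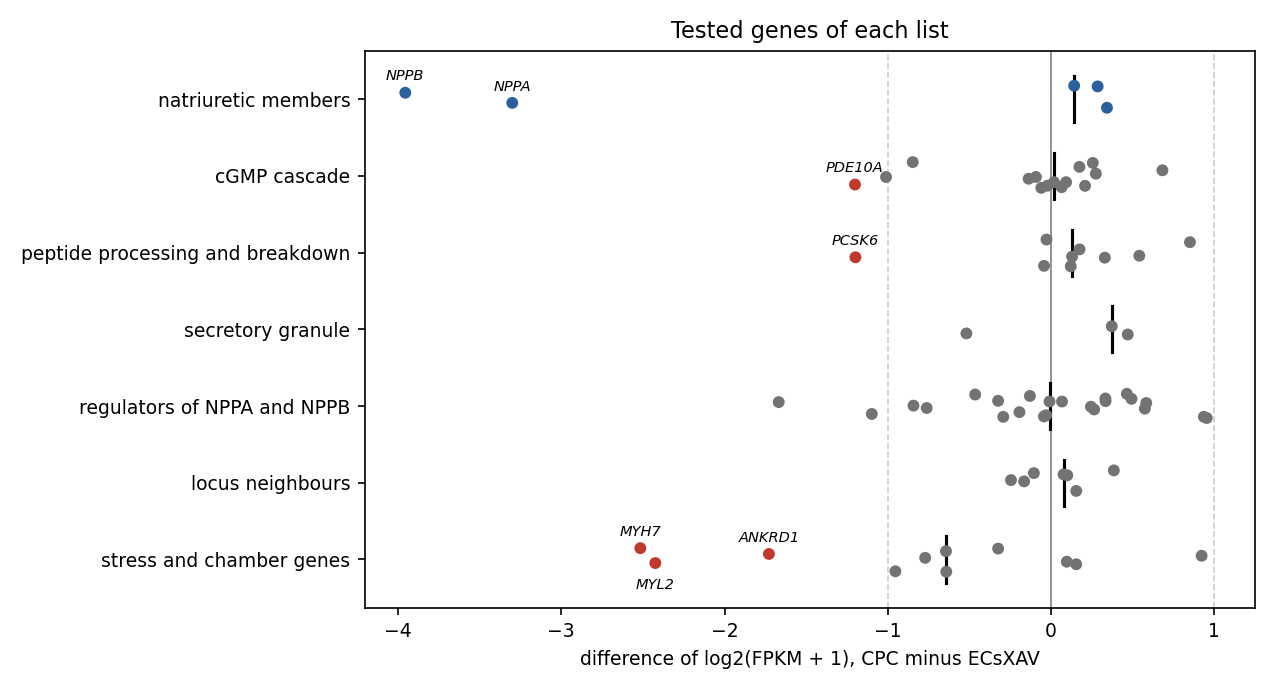
Difference of log2(FPKM + 1), CPC minus ECsXAV, for each tested gene of the family and of the 6 lists, 1 row per list, with list genes past the criterion in red and named, the family in blue, a black bar at each list's median and dashed lines at a 2-fold difference. NPPB at -3.96 and NPPA at -3.30 lie farthest from 0, followed by MYH7 at -2.52, while the transcription factors spread to both sides of 0 around a median of -0.01.

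By distance between centred log2(FPKM + 1) profiles over the 4 libraries, the genes most like NPPA among 12095 compared were TGFBI (0.356), SORCS1 (0.403), AFP (0.477), HOPX (0.608) and LUM (0.655). NPPB was next, at 0.673. For NPPB the order was TGFBI (0.478), NPPA (0.673), AFP (0.722), SORCS1 (0.818) and HOPX (1.15). HOPX is among the genes that the study reported as different. TGFBI had 13.7 and 20.0 FPKM in ECsXAV and 0.50 FPKM in each CPC replicate, and SORCS1 had 8.39 and 7.65 FPKM in ECsXAV and was listed at 0 in CPC. With 4 libraries in 2 groups, the distance mostly ranks genes by the size of their group difference.

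**Figure D5:**
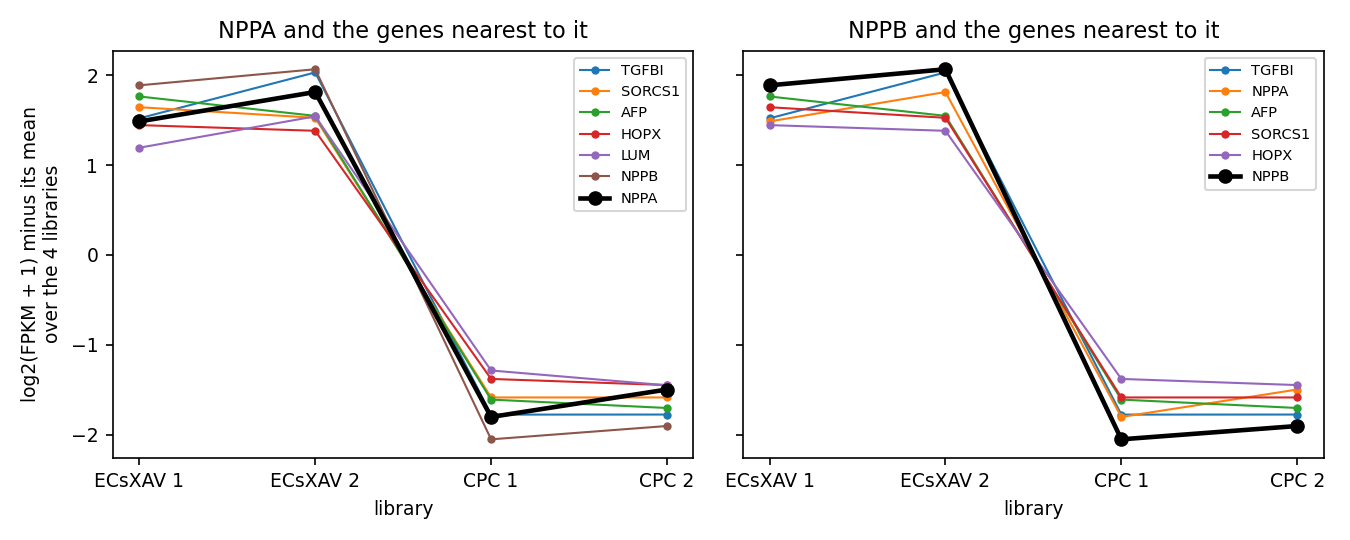
Centred log2(FPKM + 1) of NPPA, NPPB and the genes nearest to them in each of the 4 libraries, 1 line per gene, with NPPA and its nearest genes in the left panel and NPPB and its nearest genes in the right. All lines are high in both ECsXAV libraries and low in both CPC libraries, with NPPB spanning the widest range.

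Of the markers of other cell types, some were higher in ECsXAV as the ligands were, and others were not. The summed level of 8 fibroblast and mesenchymal markers was 117 and 152 FPKM in ECsXAV and 65.4 and 55.0 FPKM in CPC, and 3 of the 5 tested (COL1A1, COL3A1 and LUM) met the criterion as higher in ECsXAV. The other tested markers of this list had higher means in CPC, POSTN with means of 7.04 FPKM against 7.99 FPKM and PDGFRA with 10.8 and 10.9 FPKM against 14.5 and 10.8 FPKM. The 4 smooth muscle markers summed to 291 and 261 FPKM in ECsXAV and 136 and 162 FPKM in CPC. Of these, TAGLN and CNN1 were higher in ECsXAV, at 116 and 108 FPKM against 15.8 and 22.6 FPKM for TAGLN, while ACTA2 overlapped and MYH11 was higher in CPC at under 1 FPKM throughout. The summed level of 6 endoderm markers was 36.7 and 30.7 FPKM in ECsXAV and 16.6 and 18.5 FPKM in CPC. AFP had 11.4 and 9.70 FPKM against 0.199 and 0.124 FPKM, and TTR was also higher in ECsXAV. APOA1 differed little, at 20.6 and 17.9 FPKM against 15.9 and 17.8 FPKM, and ALB overlapped. The 5 blood markers summed to 2.85 and 5.05 FPKM against 0.361 and 0.207 FPKM, most of it HBE1 (adjusted p = 0.066 from limma). The 10 endothelial markers summed to 13.1 and 11.8 FPKM in ECsXAV and 14.6 and 11.4 FPKM in CPC, most of it KDR, with PECAM1 at 0.0425 to 0.233 FPKM and none of the 3 tested past the criterion. The sums of the skeletal muscle and of the pluripotent markers overlapped between the groups. The epicardial sum was higher in ECsXAV, at 1.78 and 1.65 FPKM against 0.845 and 0.677 FPKM. Most of it was TBX18, at 1.49 FPKM in each ECsXAV library and 0.444 and 0.348 FPKM in CPC. WT1 was also higher in ECsXAV, while UPK3B overlapped. ALDH1A2 had the opposite order, with means of 0.0526 FPKM in ECsXAV and 0.251 FPKM in CPC. All epicardial markers were below the filter. The part of these markers in the difference of NPPA and NPPB was not tested.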

How the data were processed

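Poly-A RNA-seq of 4 libraries was analysed, 2 per group, grouped by the cell type in the labels. The authors deposited FPKM per gene and per RefSeq transcript, computed with Cufflinks on hg19. The submitters' processing notes name TopHat 1.3.3, and the study's methods name Gsnap, as the aligner. Differences, intervals and p-values were taken from limma (version 3.58.1, R 4.3.3), fitted to log2(FPKM + 1) with a trend in the prior variance over the 12398 genes that averaged 1 FPKM or more, and the added 1 makes differences of weakly expressed genes too small. For symbols with several loci the locus with the highest mean was used. Relative depth and whole reads came from the steps between FPKM of 0.005 to 0.1 (tolerance 0.06 of a read). ECsXAV replicate 2, the shallowest library, is the least precise for low genes.

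The smallest two-sided p of an exact permutation test with 2 libraries a group is 0.333, so every p leans on the spread that limma shares across genes. The study's methods call the replicates biological and do not say how far back they were separate. The fit was tested on simulated data of 12398 genes, where 83.5% of 200 genes changed by 2 on the log2 scale passed the criterion, beside 7 unchanged genes. The members and the gene lists were chosen with earlier results of these data known. Named genes are the 8 members, list genes past the criterion or over 2-fold, those with high levels needed to describe a list, and the 5 genes nearest to NPPA and to NPPB. Other list genes were named after their values were seen. Promoters of the members other than NPPB were read from the RefSeq table on GRCh38.p14, and no coordinates were converted between builds. The alternatives were summed loci, the isoform table, no trend, quantile normalization, median-of-ratios scaling, a pseudocount of 0.1, other filters (none, or a mean of 5 FPKM), the fit without microRNA and small nucleolar RNA genes, the replicate block and each library left out. Python 3.11.15 (pandas 2.3.3, NumPy 2.4.6, matplotlib 3.10.9) was used for tables and plots.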

Additional observations from a re-analysis of the deposited data

How the results depend on the processing

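Over 16 alternatives NPPA stayed between -3.46 and -3.14 and NPPB between -4.13 (pseudocount of 0.1) and -3.87 on the log2 scale. CORIN ran from -0.01 to 0.30, FURIN from 0.20 to 0.48 and, over 15 alternatives, NPR2 from 0.17 to 0.40. NPPA and NPPB were the members over 2-fold in each. With no filter, 20 genes passed (8 higher in ECsXAV, 12 in CPC), with 0 genes of the cGMP cascade, of processing and breakdown and of the stress and chamber list. With FPKM under 1e-06 also set to 0, chosen after seeing the data, 79 passed (50 and 29), with 0 genes of the cGMP and processing lists. At a mean FPKM of at least 5, 152 passed (93 higher in ECsXAV), with 0 of the cGMP and processing lists. With the replicate block, 176 passed (117 higher in ECsXAV, 59 in CPC), with 0 of these lists and adjusted p of 0.0578 for PCSK6 and 0.0743 for PDE10A from limma. The numbers gave no pairing that the labels state, and the replicate differences of the groups had a Pearson correlation of 0.035 across genes (Spearman 0.356). Without microRNA and small nucleolar RNA genes it was 0.186 (Spearman 0.376). The cGMP list had 0 genes with a pseudocount of 0.1 and with quantile normalization, and 2 without the trend, without short RNA genes (microRNAs and snoRNAs) and without these genes under the block, the last chosen after seeing the data. The regulators had 1 (HAND1) with a pseudocount of 0.1 and 2 (HAND1 and HEY2) without short RNA genes, under the block too. Leaving out each library gave 59 to 159 genes (20 to 89 higher in ECsXAV, 39 to 70 in CPC), 0 genes of the cGMP and processing lists, and 1 to 2 of the stress and chamber list, with NPPA over NPPB at 2.45 to 2.71 in ECsXAV and 4.29 to 4.74 in CPC. The lone library left in a group was there assumed to vary like the other group. The causes were not tested.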
